A study of Mus musculus with 8 samples.

Results

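The S100, galectin and annexin genes described here are 10 genes that are commonly read as marks of antigen-experienced T cells: S100a4, S100a6, S100a10, S100a11, Lgals1, Lgals3, Anxa1, Anxa2, Crip1 and Vim. They are 10 of the 32285 features of the count matrices, and all 10 were found there by symbol. They were chosen from their measured levels in groups of T cells gated by single transcripts, so differences between those groups are given as a description, without a test. The groups were CD4 cells (at least 1 transcript of Cd4 and none of Cd8a or Cd8b1), CD8 cells (the reverse), CD8 cells with or without a transcript of Ccl5, a chemokine of effector and memory CD8 cells, and cells with a transcript of Foxp3, the transcription factor of regulatory T cells. Every gated cell held at least 2 transcripts of the 6 genes Cd3d, Cd3e, Cd3g, Trac, Trbc1 and Trbc2.

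S100 proteins are small calcium-binding proteins that act by docking onto partner proteins. S100A4 and S100A6 act on the cytoskeleton and cell movement, S100A10 forms a complex with annexin A2 at membranes, and S100A11 binds annexin A1. Annexins bind phospholipid membranes when calcium rises, galectins bind sugars of cell-surface glycoproteins inside and outside the cell, CRIP1 is a small LIM-domain protein, and vimentin is an intermediate filament of the cytoskeleton. Naive T cells circulate through lymph nodes, while effector and memory T cells take on migration and adhesion genes, among them several of these 10.

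The data were 8 single-cell libraries of T cells sorted as CD45+ CD3+ TCRβ+ out of the pancreata of NOD mice, which develop autoimmune diabetes spontaneously, labelled as female and 3 to 4 months old. Of these, 1 came from active disease, with a blood glucose over 600 mg/dl, and 1 from onset (250 mg/dl), both untreated. The other 6 came from mice with new diabetes (200 to 300 mg/dl, given as 3 to 5 months old in the treatment protocol), with 1 vehicle and 1 PPCA library on each of days 2, 3 and 4. PPCA is nutlin-3 at 50 mg/kg, an antagonist of MDM2 that thereby frees p53, together with MK-1775 at 25 mg/kg, an inhibitor of the kinase WEE1, and the vehicle was a mix of ethanol, Tween 20 and PEG300. The study followed the T cells of the pancreas over days of daily treatment. Days are given here as the sample titles number them, whereas the series text speaks of 1, 2 and 3 days of therapy and the protocol of a harvest on the day after treatment. Whether title days count treatments or harvests is not stated. The labels do not give the number of mice behind a library, so p-values measure the spread between these libraries.

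The libraries held between 7023 and 13129 barcodes and between 36934580 and 67603740 unique molecular identifiers (UMIs, each a captured transcript). After filtering, 70957 T cells remained, with library medians of 3852 to 6481 UMIs per cell. The CD4 group had 2650 to 4771 cells per library, the Ccl5-negative CD8 group 1066 to 2919, the Ccl5-positive CD8 group 469 to 1568 and the Foxp3-positive group 217 to 490. Any 2 libraries shared 10 to 38 cell barcodes, at most 0.447% of a library. Against the labels, 4 libraries (vehicle day 2, vehicle day 3, PPCA day 3 and PPCA day 4) lacked Xist, with at most 0.743 UMIs per 1000000 against at least 416 in the other 4, and carried Y-linked transcripts. Sex therefore differed within the day 2 and day 4 pairs and was the same within the day 3 pair and between the active and onset libraries. Of the defining markers, the 6 T cell genes summed to 5080 to 7623 UMIs per 1000000 across the groups, while the 4 B cell genes reached at most 30.5, the 5 fibroblast genes 1.62 and the 4 neutrophil genes, S100a8 and S100a9 among them, 7.57. Summed levels of other lists were higher: 24.8 to 113 for the 3 endothelial genes, 109 to 206 for the 9 myeloid genes and up to 309 for the 8 exocrine genes.

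Promoter sequences are shown for 4 members that mark the ends of the range between the 2 CD8 groups. S100a4 and S100a6 are neighbours on chromosome 3, with only S100a5 between them among protein-coding genes, and had the largest median ratios of Ccl5-positive over Ccl5-negative CD8 cells, while Vim and Crip1 had the smallest. Each run is the 250 bases before the RefSeq start in GRCm38.p6, read 5′ to 3′ on the strand of the gene, which is the plus strand for all 4. S100a4 is at chr3:90603520-90603769, S100a6 at chr3:90612644-90612893, Vim at chr2:13574061-13574310 and Crip1 at chr12:113151762-113152011. Capitals mark matches, on either strand, to the TATA box TATAAA, the AP-1 motif TGANTCA, the Sp1 motif GGGCGG and the KLF motif CCACCC, the last 2 of which can overlap.
S100a4: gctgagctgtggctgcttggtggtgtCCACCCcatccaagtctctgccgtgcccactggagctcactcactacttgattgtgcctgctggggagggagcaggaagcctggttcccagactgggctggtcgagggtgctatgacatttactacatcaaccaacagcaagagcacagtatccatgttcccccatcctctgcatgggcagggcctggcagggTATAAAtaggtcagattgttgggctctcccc
S100a6: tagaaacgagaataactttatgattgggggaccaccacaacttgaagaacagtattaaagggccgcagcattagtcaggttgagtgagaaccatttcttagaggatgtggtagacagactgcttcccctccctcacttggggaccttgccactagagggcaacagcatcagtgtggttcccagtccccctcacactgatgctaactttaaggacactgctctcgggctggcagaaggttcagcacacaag
Vim: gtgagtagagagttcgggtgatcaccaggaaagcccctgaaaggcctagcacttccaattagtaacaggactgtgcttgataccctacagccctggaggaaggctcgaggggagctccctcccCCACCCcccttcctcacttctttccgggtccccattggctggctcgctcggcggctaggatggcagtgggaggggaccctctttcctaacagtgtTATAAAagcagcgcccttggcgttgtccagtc
Crip1: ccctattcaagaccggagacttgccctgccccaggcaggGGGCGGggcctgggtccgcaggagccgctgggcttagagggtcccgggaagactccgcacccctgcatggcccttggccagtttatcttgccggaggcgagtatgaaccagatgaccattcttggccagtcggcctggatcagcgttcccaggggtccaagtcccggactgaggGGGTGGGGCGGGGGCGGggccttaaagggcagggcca

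RefSeq promoters were matched for 8 of the 10 members, all but S100a10 and Lgals1. TATAAA occurred in 4 of these 8 (12.4% of 32851 promoters of the same length), TGANTCA in 2 (6.75%), GGGCGG in 4 (32.7%) and CCACCC in 4 (28.1%). S100a4 and Vim each had 1 TATAAA and 1 CCACCC match, S100a6 had none of the 4 motifs, and Crip1 had 3 GGGCGG matches and 1 CCACCC match. The neighbours S100a4 and S100a6 thus shared no match in this window. The files do not measure the promoters, and a match is a description of the letters.

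The unit of level is CPM (counts per 1000000): cells of 1 group in 1 library were summed, and the gene's UMIs divided by all UMIs of that sum. The first members are S100a4 and S100a6, which act on cell movement. The level of S100a4 in Ccl5-positive CD8 cells ran from 343 to 1064 CPM (median 522) over the 8 libraries. In Ccl5-negative CD8 cells it ran from 3.19 to 14.2 CPM (median 6.80), in CD4 cells from 41.9 to 105 CPM (median 72.7) and in Foxp3-positive cells from 145 to 453 CPM (median 308). The 2 CD8 ranges lay far apart, CD4 cells lay apart from both Foxp3-positive cells and Ccl5-negative CD8 cells, and the ranges of the 2 highest groups overlapped. S100a6 had the same order, with medians of 1001 CPM in Ccl5-positive CD8, 374 CPM in Foxp3-positive, 83.9 CPM in CD4 and 18.3 CPM in Ccl5-negative CD8 cells, each group above the next in all 8 libraries. With cells thinned to 2000 UMIs before every gate was set, the mean level in Ccl5-positive CD8 cells over the 8 libraries was 1026 CPM in place of 598 CPM for S100a4, 1708 CPM in place of 1071 CPM for S100a6 and 157 CPM in place of 98.4 CPM for Lgals3.

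**Figure D1:**
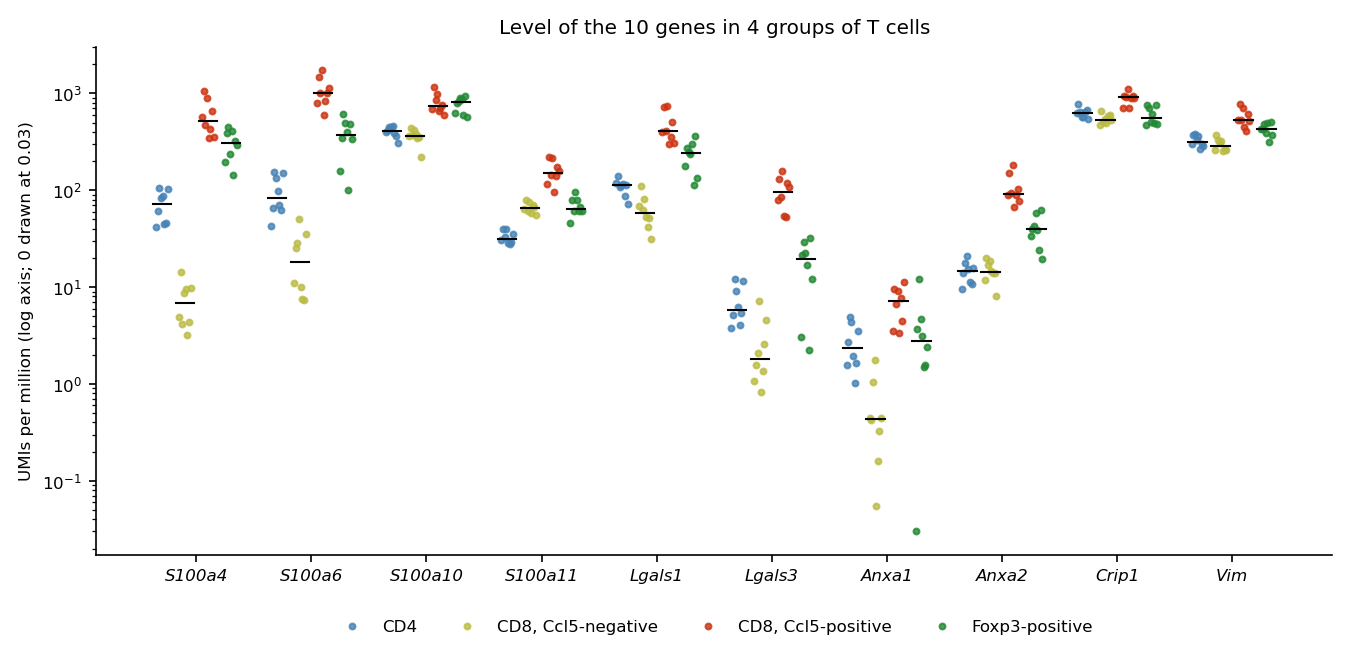
Level of each member in CPM (log axis) in CD4 (blue), Ccl5-negative CD8 (yellow), Ccl5-positive CD8 (red) and Foxp3-positive (green) T cells; each point is 1 of 8 libraries, the bar is the median, and a level of 0 is drawn at 0.03. S100a4 is at 343 to 1064 in Ccl5-positive and 3.19 to 14.2 in Ccl5-negative CD8 cells, and Crip1 at 699 to 1109 and 476 to 662.

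The annexin partners S100a10 and S100a11 were less graded. S100a10, the p11 subunit of the annexin A2 complex, was the member with its highest median outside CD8 cells: 807 CPM in Foxp3-positive cells (569 to 934) against 733 CPM in Ccl5-positive CD8 cells (599 to 1166), 2 ranges that overlapped. Within libraries the order of these 2 groups was not fixed, as Foxp3-positive cells were higher in 2 of 8. The mean was higher in Ccl5-positive CD8 cells, at 803 CPM against 762 CPM in Foxp3-positive cells. With cells thinned before gating, the mean in Ccl5-positive CD8 cells was 1037 CPM. S100a10 was 413 CPM in CD4 cells (310 to 461) and 366 CPM in Ccl5-negative CD8 cells (219 to 438). S100a11 was the member with its lowest median in CD4 cells, at 31.5 CPM (28.0 to 39.9), below Ccl5-negative CD8 cells at 65.7 CPM (56.1 to 80.2) and Foxp3-positive cells at 63.9 CPM (46.1 to 94.8). Its level in Ccl5-positive CD8 cells was 150.02 CPM (94.98 to 219), a range just above that of Foxp3-positive cells. S100a11 and Lgals1 have pseudogene copies in RefSeq, and the sources used here do not say how counting treated reads shared with them.

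The galectins followed the order of S100a4. Lgals1, the gene of galectin-1, had median levels of 404 CPM in Ccl5-positive CD8 cells (299.8 to 748), 241 CPM in Foxp3-positive cells (113 to 362), 113 CPM in CD4 cells (71.6 to 141) and 57.7 CPM in Ccl5-negative CD8 cells (31.1 to 111). Lgals3, the gene of galectin-3, had median levels of 96.1 CPM in Ccl5-positive CD8 cells (52.7 to 158) and 19.3 CPM in Foxp3-positive cells (2.25 to 32.4), against 5.81 CPM in CD4 (3.77 to 12.1) and 1.82 CPM in Ccl5-negative CD8 cells (0.823 to 7.14). The lowest Ccl5-positive CD8 library was above every library of the other 3 groups for Lgals3.

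Of the annexins, Anxa2 had a median level of 92.0 CPM in Ccl5-positive CD8 cells (67.0 to 183), 39.4 CPM in Foxp3-positive cells (19.4 to 62.4), and nearly the same level in CD4 cells (14.7 CPM, 9.65 to 20.7) and Ccl5-negative CD8 cells (14.3 CPM, 8.08 to 19.9). CD4 exceeded Ccl5-negative CD8 cells for Anxa2 in 4 of 8 libraries. Anxa1, which dampens inflammation through formyl peptide receptors in other cells, was at 7.14 CPM in Ccl5-positive CD8 cells (3.34 to 11.2) and 2.77, 2.33 and 0.433 CPM in Foxp3-positive, CD4 and Ccl5-negative CD8 cells. In the Foxp3-positive cells of the active library no Anxa1 UMI was counted.

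Crip1 and Vim were expressed throughout. Crip1 had median levels of 911 CPM in Ccl5-positive CD8 cells (699 to 1109), 629 CPM in CD4 cells (538 to 774), 558 CPM in Foxp3-positive cells (474 to 767) and 531 CPM in Ccl5-negative CD8 cells (476 to 662). The ranges of the lower 3 overlapped, with CD4 above Ccl5-negative CD8 cells in all 8 libraries, Foxp3-positive cells below CD4 cells in 5 and above Ccl5-negative CD8 cells in 4. Vim had 531 CPM in Ccl5-positive CD8 cells (406 to 784), 429 CPM in Foxp3-positive cells (312 to 509), 314 CPM in CD4 cells (269 to 384) and 285 CPM in Ccl5-negative CD8 cells (252 to 367), with neighbouring ranges overlapping.

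Set as a ratio within each library, all 10 members were higher in Ccl5-positive than in Ccl5-negative CD8 cells in all 8 libraries, as were 25.3% of 7530 genes averaging at least 10 CPM in either group. The lowest, median and highest log2 ratios were 5.15, 6.76 and 7.23 for S100a4. For S100a6 they were 5.00, 5.88 and 7.11, and for Lgals3 4.47, 5.43 and 6.38. The other medians ran from 4.06 for Anxa1, which had under 3 UMIs in the Ccl5-negative cells of 2 libraries (raised to 3), through 2.92 for Lgals1 and 2.91 for Anxa2 to 1.30 for S100a11, 1.16 for S100a10, 1.02 for Vim and 0.63 for Crip1. Of the 9 members averaging at least 10 CPM in either group, 5 were at least 2-fold higher in every library (S100a4, S100a6, Lgals1, Lgals3 and Anxa2), a property of 2.35% of the same genes. Anxa1, at 6.92 CPM below that level, had log2 ratios of 2.34 to 4.99, also above 2-fold in all 8 libraries. The median log2 ratio was 2.92 over the members and 0.09 over those genes. Since the gate chose the members, these shares describe the list and support nothing about it. Ccl5-positive CD8 cells had a lower median UMI count than Ccl5-negative ones in 6 of 8 libraries. The 9 myeloid genes summed to 130 to 206 CPM in Ccl5-positive and 109 to 135 CPM in Ccl5-negative CD8 cells, higher in the former in all 8 libraries, with Adgre1 at 0 in both. Regulatory T cell markers were also higher in the former in all 8 libraries (40.7 to 220 against 27.2 to 92.7 CPM) and NK genes in 7 (at most 4.72 CPM), while B cell and endothelial genes were lower in all 8. The part of depth and of these lists in the ratios was not tested.

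**Figure D2:**
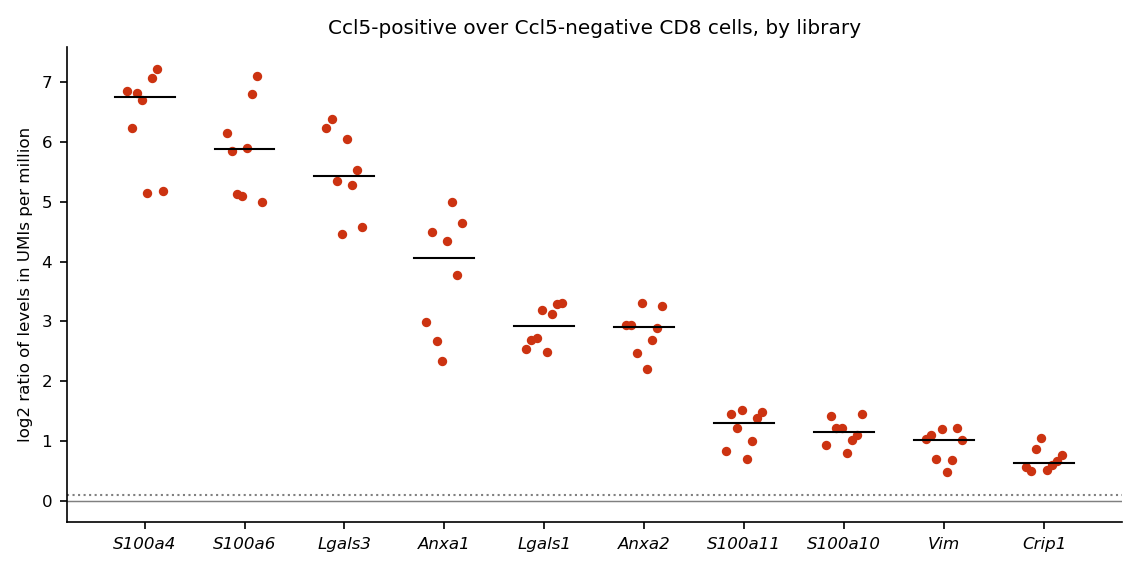
Log2 ratio of the level in Ccl5-positive over Ccl5-negative CD8 cells for each member; each point is 1 of 8 libraries, the bar is their median, the solid line is 0 and the dotted line the median of all genes averaging at least 10 CPM (0.09). The medians run from 6.76 for S100a4 to 0.63 for Crip1, and every point lies above 0.

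Within the remaining cells the members divided differently. Ccl5-negative CD8 cells had lower levels than CD4 cells in all 8 libraries for 7 members, 5 of which average at least 10 CPM in either group, as do the 7453 genes of which 30.9% were lower in all 8. Anxa1 and Lgals3 lie below that level. The 7 had median log2 ratios of -3.33 for S100a4, -2.26 for S100a6, -2.28 for Anxa1, -1.64 for Lgals3, -0.93 for Lgals1, -0.20 for Crip1 and -0.16 for Vim. S100a11 was the exception in the other direction, higher in Ccl5-negative CD8 cells in all 8 libraries (11% of genes) with a median log2 ratio of 1.02 (0.67 to 1.32). Foxp3-positive cells, set against the Foxp3-negative cells of the CD4 gate, were higher in all 8 libraries for 7 members (28.2% of 7832 genes). Their median log2 ratios were 2.45 for S100a4, 2.23 for S100a6, 1.55 for Anxa2, 1.10 for S100a11, 1.09 for Lgals1, 0.95 for S100a10 and 0.37 for Vim. Lgals3 was higher in 6 of 8 libraries and Crip1 in 3 (median -0.11). By its measured level Anxa1 was higher in 5, with under 3 UMIs in the Foxp3-positive cells of 3 libraries. Myeloid genes summed to 148 to 200.3 CPM in Foxp3-positive and 118 to 140 CPM in CD4 cells, without overlap, with Adgre1, Tyrobp and Cd14 at 0 in all Foxp3-positive groups. B cell genes had medians of 13.6 and 2.52 CPM. The part of these lists in the ratios was not tested. Of the Foxp3-positive cells, 35.4% to 54.2% lay in the CD4 gate and 6.59% to 12.4% in the CD8 gate. These gates rest on single UMIs, and the part of free RNA in the shares was not tested.

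The levels of summed cells could come from many cells with few transcripts or few cells with many. Each cell was therefore thinned at random to 2000 UMIs, which sets 1 depth for detection while the groups were still gated at full depth, and cells below that number were left out. At this depth S100a6 was detected in 33.7% to 63.2% of Ccl5-positive CD8 cells (median 49.2%) and in 0.73% to 3.56% of Ccl5-negative ones (median 1.67%). For S100a4 the medians were 30.3% and 0.64%, and for Lgals3 15.3% and 0.25%. Crip1, in contrast, was detected in a median of 75.9% and 59.8% of the same cells. Background from free RNA in the droplets was not measured, and shares as low as those of S100a4 and Lgals3 in Ccl5-negative cells are not read as expression. In CD4 cells the median shares were 3.73% for S100a4, 4.99% for S100a6 and 0.86% for Lgals3, and in Foxp3-positive cells 14.9%, 17.1% and 2.14%.

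Counted per thinned cell, CD4 cells held UMIs of a mean of 1.68 to 2.01 members per library, Ccl5-negative CD8 cells 1.48 to 2.05, Foxp3-positive cells 1.92 to 2.65 and Ccl5-positive CD8 cells 3.15 to 4.77. At least 5 of the 10 members were detected in 25.6% to 56.8% of Ccl5-positive CD8 cells. In CD4 cells this share was 2.03% to 4.81%, in Ccl5-negative CD8 cells 0.43% to 1.81% and in Foxp3-positive cells 6.78% to 13.9%. The Ccl5-positive CD8 range lay apart from the other 3.

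Pairs of members were followed within single cells. Among thinned Ccl5-positive CD8 cells, S100a4 was detected in a median of 64.2% of the cells with an S100a6 UMI and in 4.3% of the cells without one. In CD4 cells the medians were 45.2% and 1.2%, and in Foxp3-positive cells 63.0% and 4.8%, each in the same direction in all 8 libraries. Lgals3 was detected in 12.7% of CD4 cells with S100a6 and 0.2% of those without, and Lgals1 in 49.6% and 11.3%. Of the galectins, Lgals1 was found in 65.0% of CD4 cells with Lgals3 and 13.04% of those without. For the annexin A2 complex, S100a10 was detected in 75.0% of CD4 cells with an Anxa2 UMI against 49.6% without, and in 85.4% against 66.4% of Ccl5-positive CD8 cells, in all 8 libraries of both. Among Ccl5-negative CD8 cells that pair differed in the same direction in 5 of 8 libraries, with medians of 52.9% and 49.1%. For the annexin A1 pair, S100a11 was detected in a median of 24.4% of CD4 cells with an Anxa1 UMI and 5.14% of those without, on 3 to 27 Anxa1-positive cells a library. In Ccl5-positive CD8 cells, on 4 to 31 such cells, the medians were 51.7% and 26.7%, with that direction in 6 of 8 libraries. With 0 to 3 such cells in Ccl5-negative CD8 and 0 to 8 in Foxp3-positive cells, no direction is read there. Crip1 was found in 66.1% of CD4 cells with Vim and 55.0% without. Cells of 1 library share its depth and free RNA, and these shares are a description.

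Of 40 related genes (other S100s, galectins, annexins, Crip2 and Crip3, partners and receptors), 16 averaged at least 10 CPM in either CD8 group, and their ratios of Ccl5-positive over Ccl5-negative cells are given as a description, like those of the members. At least 2-fold higher in all 8 libraries were 5 of them. Ahnak, a large scaffold that binds the S100A10 and annexin A2 complex, had a median log2 ratio of 1.97 (1.86 to 2.25), and Itgb1, the integrin β1 subunit, 2.40 (2.12 to 3.21). Lag3, an inhibitory receptor that galectin-3 can bind, stood at 2.89 (1.93 to 3.83) and Cd7, a receptor of galectin-1, at 1.23 (1.01 to 1.45). Havcr2, which encodes the galectin-9 receptor TIM-3, averaged 10.7 CPM in Ccl5-positive cells and had under 3 UMIs in the Ccl5-negative cells of each library. Of the other S100, galectin and annexin genes at that level, medians ran from -0.02 for Lgals9 and 0.02 for Anxa5, neither with a fixed direction across libraries, to 0.49 for Anxa7 and 0.65 for S100a13. Below that level, Anxa4 averaged 3.76 CPM in Ccl5-positive and 0.507 CPM in Ccl5-negative cells. In Foxp3-positive cells, set against the Foxp3-negative cells of the CD4 gate, Ahnak (median log2 1.66) and Lag3 (1.95) were at least 2-fold higher in all 8 libraries, and Itgb1 (1.31) was higher in all 8.

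PPCA was compared with vehicle within days, by edgeR's quasi-likelihood test over all genes, with day as a block and 2 residual degrees of freedom. The call rule was a Benjamini-Hochberg value under 0.05. A value after ± is a standard error derived from the edgeR test statistic, not the spread over the 3 pairs. No member was called in any of the 4 groups. Few genes were called at all: 0 of 11946 in CD4 cells, 0 of 11457 in Ccl5-negative CD8 cells, 0.0291% of 10320 (3 genes) in Ccl5-positive CD8 cells and 0.0797% of 8778 (7 genes) in Foxp3-positive cells, with an unadjusted p under 0.05 in 803, 854, 697 and 538 genes. DESeq2 called 35, 34, 24 and 6 genes. Of the related genes, 23, 21, 19 and 16 could be tested and none was called by edgeR. The 5 most abundant of them in Foxp3-positive cells had log2 fold changes of -0.05 for Ptprc (CD45), 0.17 for Itgb1, -0.19 for Ahnak, -0.18 for Spn and -0.44 for S100a13.

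The median over the members was farthest from 0 in Foxp3-positive cells. There S100a4 was at 453, 407 and 324 CPM in the vehicle libraries of days 2, 3 and 4 and at 234, 145 and 293 CPM in the PPCA libraries, all 3 below all 3 vehicle libraries, with a log2 fold change of -0.90 ± 0.21 and an edgeR adjusted p of 0.271 that misses the threshold. Lgals1 was at 245, 299 and 362 CPM under vehicle and 236, 113 and 133 CPM under PPCA, also without overlap (-0.99 ± 0.23, edgeR adjusted p = 0.271). Crip1 was at 707, 609 and 767 CPM under vehicle and 506, 498 and 479 CPM under PPCA (-0.52 ± 0.11, edgeR adjusted p = 0.192). For Vim the levels were 480, 494 and 509 CPM against 391, 312 and 371 CPM (-0.51 ± 0.13, edgeR adjusted p = 0.301). In these 4 genes the 3 PPCA libraries lay below the 3 vehicle libraries, a property of 2.3% of the 7747 genes averaging at least 10 CPM in these libraries.

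The ranges overlapped for the other members in Foxp3-positive cells. S100a6 was at 606, 399 and 486 CPM under vehicle and 496, 101 and 335 CPM under PPCA (-0.92 ± 0.26, edgeR adjusted p = 0.429), lower on each day. Lgals3 was at 29.5, 17.0 and 32.4 CPM and 22.4, 2.25 and 12.1 CPM (-1.18 ± 0.35, edgeR adjusted p = 0.502). The fold changes of S100a10 (-0.42 ± 0.15), Anxa2 (-0.54 ± 0.31) and S100a11 (0.02 ± 0.20) had edgeR adjusted p-values of 0.749, 0.817 and 0.992. Anxa1 was removed by the low-count filter, at 12.1, 3.12 and 1.58 CPM under vehicle and 4.67, 1.498 and 2.42 CPM under PPCA. Without that filter its log2 fold change was -0.95 ± 0.62 (edgeR adjusted p = 0.973). Of the 9 members tested, 7 had an unadjusted p under 0.05, against 6.13% of all genes tested, and the median log2 fold change was -0.54 over the members and 0.01 over all genes. The sizes depended on single pairs. Leaving out day 3 gave -0.56 for S100a4, -0.42 for S100a6 and -0.82 for Lgals3. Leaving out day 2 gave -1.48 for Lgals1, -1.91 for Lgals3, -0.69 for S100a10 and -1.24 for Anxa2. Leaving out day 4 gave -1.26 for S100a4, -0.27 for S100a10 and -0.09 for Anxa2. With cells thinned before gating, Anxa2 was at -0.20.

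These values rest on small groups and on libraries whose sex goes against the labels. Within the day 3 pair both libraries carried Y-linked transcripts. There all 10 members were lower under PPCA, with log2 ratios from -0.29 for Crip1 to -2.92 for Lgals3. Lgals3 and Anxa1 had low levels in its PPCA library, at 2.25 and 1.498 CPM. This is 1 pair of libraries with no share of all genes set beside it, and nothing about sex is read from it. With sex as a further factor, which leaves 1 residual degree of freedom, 6 of 9 members were called lower by edgeR (S100a4, S100a6, Lgals1, Lgals3, Crip1 and Vim), against 0.581% of genes. The number called lower was 6 without a low-count filter (0.319% of genes), 3 without the day 2 pair (0.168%) and 4 without the day 4 pair (0.647%). It was 0 without the day 3 pair, without the day block (lowest adjusted p over the members 0.998 by edgeR), by DESeq2, with DESeq2's size factors in edgeR, without doublet removal, with cells thinned before gating and without cells holding B cell or myeloid UMIs. Other values differed between the vehicle and PPCA libraries of this group. The share of Foxp3-positive cells in the CD8 gate was 6.59%, 10.8% and 7.88% in the vehicle libraries, against 10.8%, 11.4% and 9.94% with PPCA. In the CD4 gate the shares were 54.2%, 44.5% and 41.9% against 42.7%, 40.1% and 35.4%. In neither gate they were 39.2%, 44.7% and 50.2% against 46.5%, 48.5% and 54.7%. Cd8a and Cd8b1 summed to 99.9, 147 and 91.6 CPM under vehicle and 187, 212 and 115 CPM under PPCA. The ranges of the arms overlapped for each of these values. Vehicle libraries had medians of 4028, 4496 and 4477 UMIs per Foxp3-positive cell, and PPCA libraries medians of 3626, 3515 and 3208.5. In Foxp3-positive cells of the CD4 gate alone, a set chosen after the data were seen, the differences were tested again: the median log2 fold change was -0.81 and edgeR called Lgals3 (-2.70 ± 0.43, adjusted p = 0.0217) and S100a6 (-1.59 ± 0.27, adjusted p = 0.0264), both lower, against 0.15% of genes. The Lgals3 call rests on 26, 22 and 24 UMIs in the vehicle libraries and 5, 2 and 3 with PPCA. There S100a6 stood at 712, 546 and 719 CPM under vehicle and 457, 87.2 and 219 CPM under PPCA. In that set 6 members had all PPCA libraries below all vehicle libraries, a property of 3.32% of 7767 genes. The 4 regulatory T cell markers, Foxp3 of the gate among them, summed to 1645, 1697 and 1677 CPM in the vehicle libraries, against 1699, 1762 and 2086 CPM with PPCA, without overlap. The 5 fibroblast genes summed to 0, 0.446 and 0 CPM against 0.934, 0.749 and 1.62 CPM, with Col3a1, Dcn and Lum at 0 in every library. These sums rest on very few UMIs, and no separation of the arms is read from them. Exocrine genes in Foxp3-positive cells summed to 60.6, 309 and 55.3 CPM under vehicle and 108, 43.4 and 67.1 CPM under PPCA, which did not separate the arms. The part of any of these values in the members' differences was not tested.

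**Figure D3:**
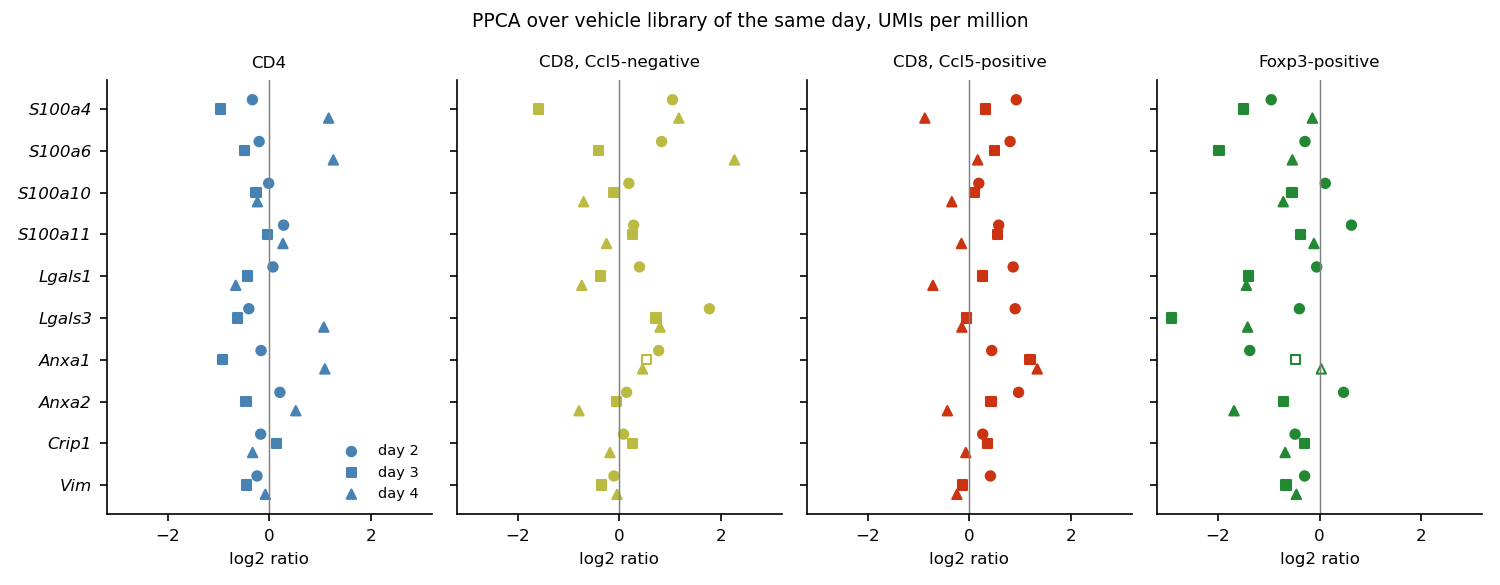
Log2 ratio of the level of each member in the PPCA over the vehicle library of the same day (circles day 2, squares day 3, triangles day 4) in the 4 groups; open symbols have under 3 UMIs in 1 of the libraries, raised to 3. In Foxp3-positive cells S100a4 is at -0.95, -1.49 and -0.14, while in CD4 cells it is at -0.33, -0.96 and 1.17.

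In CD4 and CD8 cells no member was called either. S100a6 in CD4 cells was at 155, 97.7 and 62.1 CPM under vehicle and 135, 70.1 and 149 CPM under PPCA on days 2, 3 and 4, so that the ranges overlapped, and the log2 fold change was 0.11 ± 0.32 (edgeR adjusted p = 0.961). In Ccl5-negative CD8 cells it was at 28.4, 9.93 and 7.28 CPM under vehicle and 50.7, 7.50 and 35.1 CPM under PPCA (0.86 ± 0.40, edgeR adjusted p = 0.694). In Ccl5-positive CD8 cells it was at 998, 594 and 1004 CPM under vehicle and 1739, 839 and 1124 CPM under PPCA, higher on each day with overlapping ranges (0.41 ± 0.13, edgeR adjusted p = 0.565). The median depth of these cells was 5523, 6356 and 5326 UMIs in the vehicle libraries, against 4144.5, 5208 and 3882.5 with PPCA, and its part in the difference was not tested. Over the members, the log2 fold changes ran from -0.42 (Lgals1) to 0.11 (S100a6) in CD4 cells, from -0.32 (Lgals1) to 1.03 (Lgals3) in Ccl5-negative CD8 cells and from -0.10 (S100a10) to 0.89 (Anxa1) in Ccl5-positive CD8 cells. Single pairs moved these sizes. S100a6 went to 0.49 in CD4 and 1.50 in Ccl5-negative CD8 cells with day 3 left out, to -0.44 and 0.18 with day 4 left out, and to 0.30 in CD4 and 0.24 in Ccl5-positive CD8 cells with day 2 left out. Lgals1 went to -0.64 in both CD4 and Ccl5-negative CD8 cells with day 2 left out, to -0.28 and -0.12 with day 4 left out, and to -0.19 in Ccl5-negative CD8 cells with day 3 left out. Thinning before gating gave S100a6 0.35 in CD4 and 0.23 in Ccl5-positive CD8 cells, and Lgals3 0.18 in Ccl5-negative CD8 cells. Without the day 4 pair, 4 members were called higher in Ccl5-positive CD8 cells (S100a4, S100a6, S100a11 and Anxa2), where 1.1% of genes were, and 1 (S100a4) was called lower in CD4 cells, where 0.531% of genes were. S100a6 was also called higher by edgeR in Ccl5-positive CD8 cells with sex as a factor (0.41, adjusted p = 0.00427), where 1.31% of genes were. Without a low-count filter edgeR called it higher in Ccl5-negative CD8 cells (0.85, adjusted p = 3.36e-07), where 0.447% of genes were. The size there was close to the 0.86 of the main fit. In none of these groups did the 3 PPCA libraries of any member averaging at least 10 CPM lie all above or all below the 3 vehicle libraries, which 2.62%, 3% and 3.75% of genes did above and 0.823%, 0.957% and 1.16% below. Anxa1, below that level, was at 6.66, 3.34 and 4.43 CPM in the Ccl5-positive CD8 cells of the vehicle libraries and at 9.03, 7.63 and 11.2 CPM with PPCA, all 3 above, with a log2 fold change of 0.89 ± 0.28 and an edgeR adjusted p of 0.565 that misses the threshold.

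The test of whether the treatment difference itself differed between Ccl5-positive CD8 and CD4 cells called 0 members and 6 genes (0.0497% of 12062). All 10 members had a positive value (median log2 0.26), 4 of them with an unadjusted p under 0.05, where 52.4% of all genes had a positive value and 4.72% such a p. Without the day 4 pair 6 members were called higher (0.223% of genes) and with sex as a factor 4 (0.274%). Without the day 2 pair 6 of 10 members were positive (median 0.08), without the day 3 pair also 6 (median 0.08), and with cells thinned before gating 4 (median -0.06), with no member called. The comparison shares its vehicle and PPCA libraries with those above.

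The labelled days were compared next, and no member was called. Between day 4 and the mean of days 2 and 3, edgeR called 13.4% of genes in CD4, 17.3% in Ccl5-negative CD8, 11.1% in Ccl5-positive CD8 and 5.23% in Foxp3-positive cells. The number of members called was 0 of 10, 0 of 10, 0 of 10 and 0 of 9, with 0, 2, 2 and 0 at an unadjusted p under 0.05, which 30.5%, 32.8%, 26.7% and 19.4% of genes had. The median log2 fold change over the members was 0.04, 0.13, 0.20 and 0.19. Of the related genes tested, 4 of 23, 5 of 21, 2 of 19 and 2 of 16 were called in the 4 groups, to be read against the shares of all genes above. They included Spn, the CD43 sialoprotein that galectin-1 binds, lower on day 4 in CD4 (-0.61 ± 0.10), Ccl5-negative CD8 (-0.61 ± 0.10) and Foxp3-positive cells (-0.58 ± 0.14), and Lgals3bp, the galectin-3 binding protein, lower in CD4 (-0.90 ± 0.16), Ccl5-negative CD8 (-0.95 ± 0.13) and Ccl5-positive CD8 cells (-0.79 ± 0.16). The gene of lamin A/C, Lmna, was higher in CD4 (0.92 ± 0.23), Ccl5-negative CD8 (1.37 ± 0.36) and Ccl5-positive CD8 cells (1.25 ± 0.35). The LIM-domain gene Crip2, a relative of Crip1, was higher in CD4 (1.76 ± 0.34) and Ccl5-negative CD8 cells (1.70 ± 0.49), where its median level was 1.43 and 1.02 CPM. In the Ccl5-negative CD8 cells Ptprc (CD45) was also lower (-0.46 ± 0.12), and Lag3 was higher in the Foxp3-positive cells (0.81 ± 0.18). Days were 1 pair of libraries each, and sex differed within 2 of them.

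The active and onset libraries, both Xist-positive, allow no test, since there was 1 of each, and intervals given here cover counting error only. Most members had lower levels in the active than in the onset library in each group. In Ccl5-positive CD8 cells S100a6 was at 793 CPM in the active and 1475 CPM in the onset library, a log2 ratio of -0.90 (exact 95% interval -0.95 to -0.84). S100a4 was at 573 and 1064 CPM there (-0.89, -0.96 to -0.83), and the 9 members with at least 10 CPM had a median log2 ratio of -0.75 against -0.08 for all 7740 such genes. Other values differed between these Ccl5-positive cells. Their median depth was 6918.5 UMIs in the active and 4723.5 in the onset library. Marker lists summed to 137 and 193 CPM for myeloid, 48.0 and 110.1 CPM for regulatory T and 17.4 and 43.9 CPM for exocrine genes. The part of these values in the members' ratios was not tested. In Foxp3-positive cells S100a4 was at 196 and 387 CPM (-0.99, -1.20 to -0.77), S100a6 at 157 and 349 CPM (-1.15, -1.39 to -0.91), and Lgals3 at 3.07 and 21.6 CPM on 4 and 35 UMIs (-2.81, -4.77 to -1.33). All 4 Lgals3 UMIs of the active library lay in 1 of its 217 cells (0.461% of cells, against 4.97% in the onset library), so they are not independent and this interval is too narrow. Vim in those cells was at 425 and 433 CPM, with an interval that spanned 0 (-0.19 to 0.14).

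CD4 and Ccl5-negative CD8 cells were compared in the same way. Their median depth was also higher in the active library, at 6167 against 4985 UMIs in CD4 and 7330.5 against 5970.0 in Ccl5-negative CD8 cells. Exocrine genes were lower there in all 4 groups, at 11.7 against 24.8 CPM in Ccl5-negative CD8 cells, and CD8 genes in Foxp3-positive cells were at 197 against 126 CPM. The part of these values was not tested. S100a4 was at 41.9 and 61.4 CPM in CD4 cells (-0.55, -0.68 to -0.43) and at 4.97 and 14.2 CPM in Ccl5-negative CD8 cells (-1.51, -1.96 to -1.07), and Crip1 at 623 and 774 CPM (-0.31) and 476 and 662 CPM (-0.47). The interval lay below 0 for 8 of 8 members with at least 10 CPM in CD4 cells (26.8% of genes), 8 of 8 in Ccl5-negative CD8 cells (23.9%), 9 of 9 in Ccl5-positive CD8 cells (24.1%) and 7 of 9 in Foxp3-positive cells (8.33%). No member had an interval above 0. Such intervals leave out the spread between mice.

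**Figure D4:**
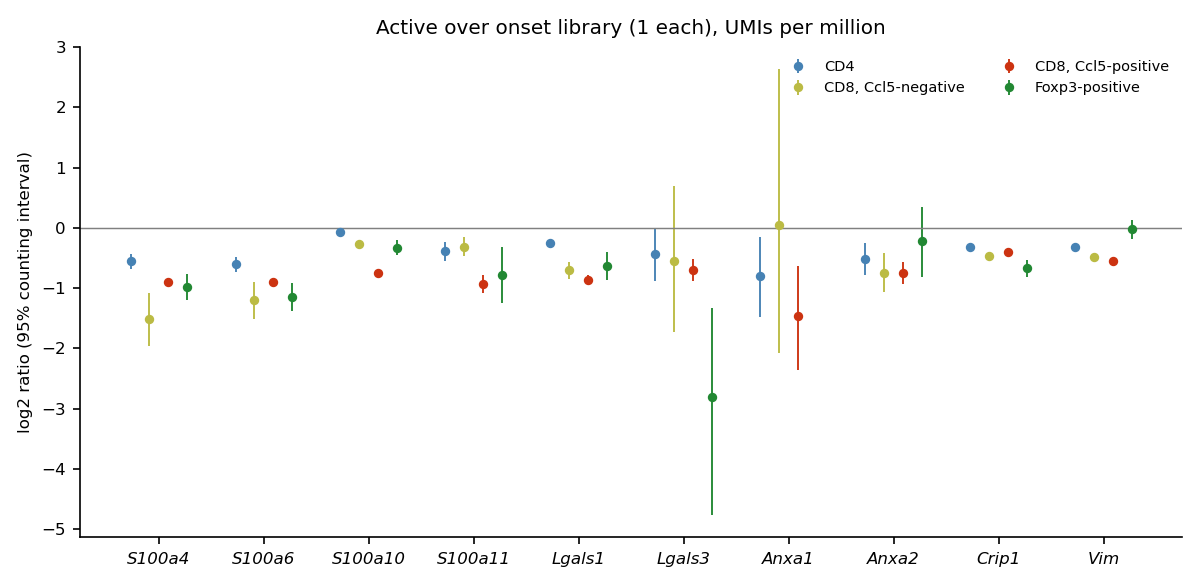
Log2 ratio of the level in the active over the onset library (1 each) for each member in the 4 groups, with exact 95% intervals that cover counting error only; Anxa1 in Foxp3-positive cells is left out, as no UMI was counted in the active library. Nearly all points lie below 0, the lowest at -2.81 for Lgals3 in Foxp3-positive cells, where the active value rests on 1 cell.

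Other genes had a like pattern. Over 32 points (4 groups, with the CD4 group without its Foxp3-positive cells, in 8 libraries) the mean of the standardised members was compared with 7453 genes averaging at least 10 CPM, and 9 of the 10 highest correlations were those of Sytl2 (Pearson r = 0.957), Ccr2 (0.953), Hip1 (0.947), Osbpl3 (0.933), Hopx (0.931), Runx2 (0.927), Rbpj (0.926), S100a13 (0.926) and Txn1 (0.921). The points share libraries and the 4 gates, so these values are a description and include the differences between the gates. Against the mean of the other 9, Lgals1 was the most typical member (0.963) and S100a11 (0.714) and Crip1 (0.749) the least. After the mean of each group was subtracted, which leaves the differences between libraries, the closest genes were Clic1 (0.862), Commd7 (0.826), Hp1bp3 (0.826), Spcs1 (0.820), Cmtm7 (0.814), Stard3nl (0.811), Arpc3 (0.793), Atp5f1 (0.793), Arf5 (0.786) and Ube2g1 (0.782). The correlations of members against the other 9 were then between 0.575 (Anxa1) and 0.793 (Anxa2). The points of the 4 groups in a library share its depth and handling.

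In the authors' deposited table of cluster markers, 9 members, all but Anxa1, were listed for 2 of the 7 clusters, those the authors named CD8 TRM TEM and CD4 Th17. For CD8 TRM TEM, the authors' deposited table gives S100a6 a log2 fold change of 3.85, the second highest of 702 genes, with detection in 87.2% of the cluster's cells. The same deposited table of the authors gives 3.26 for S100a4, 2.29 for Lgals1, 1.56 for Lgals3, 1.45 for S100a10, 1.41 for S100a11, 1.35 for Anxa2, 1.23 for Vim and 0.80 for Crip1. For CD4 Th17, the authors' deposited table gives 1.57 for S100a6, 1.503 for S100a4, 1.12 for S100a10, 0.89 for Lgals1, 0.69 for Anxa2, 0.62 for Vim, 0.59 for Crip1, 0.54 for S100a11 and 0.41 for Lgals3. Itgb1 leads that cluster at 2.95, and Ahnak stands at 1.64, per the authors' deposited table. The CD4 Treg cluster lists S100a4 (0.62) and S100a10 (0.58) among 567 genes of the authors' deposited table, and the other 4 clusters, CD4 Naive, CD4 Th0, CD4 Th1 and CD8 TCM, list no member.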

How the data were processed

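UMI counts per gene and cell were deposited by the authors as 1 filtered matrix per library. The matrix headers name Cell Ranger 6.0.0, while the submitters' processing notes name Cell Ranger 6.1.2 and Seurat. The genome build and annotation were not given in the sources used here, nor was the treatment of reads shared between gene copies. The authors also deposited a table of cluster markers with log2 fold changes, p-values and a fraction of detecting cells per cluster, printed here as percent, and these values were used only to describe the members.

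Cells with at least 500 genes and at most 10% mitochondrial UMIs were kept. Scrublet scores were ranked in each library, and the top 0.8% per 1000 cells were removed as doublets. T cells needed 2 UMIs over 6 T cell genes and at most 1 UMI over 6 B cell and myeloid genes. Raw counts were summed per library and cell group. Tests were edgeR 4.0.16 quasi-likelihood fits over all genes (TMM, filterByExpr, Benjamini-Hochberg at 0.05) in R 4.3.3 with limma 3.58.1, and DESeq2 1.42.0 was an alternative. Their scripts were tested on simulated data. Other steps used scanpy 1.11.5, scipy 1.17.1 and numpy 2.4.6. Detection and co-detection used cells thinned to 2000 UMIs. Log2 ratios of groups with under 3 UMIs were set against 3 UMIs. Background shares used genes averaging at least 10 CPM, with 2-fold as the size threshold. Intervals are exact 95% intervals for counting error only.

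PPCA and vehicle libraries of the same day deviated together in each of the 4 cell groups (correlations of 0.184 to 0.512 across genes), so day was used as a block. All 10 members are named, with the related genes past the threshold (where none was, the 5 with the highest mean CPM) and 9 of the 10 genes most like the members. The related genes named for ratios between cell groups were chosen after their values were seen. The members and lists were chosen with earlier results of these data known. Alternatives were other size factors, DESeq2, no low-count filter, no block, sex as a factor, each day's pair left out, no doublet removal, thinning before gating and no B cell or myeloid UMI. Added after the data were seen were the Foxp3-positive cells of the CD4 gate. A planned comparison and the remaining gene are not reported here.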

Additional observations from a re-analysis of the deposited data

How the results depend on the processing

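For PPCA in CD4 cells, 35 genes were called by DESeq2 and 113 without a low-count filter, in Ccl5-negative CD8 cells 34 and 166 (1 member), 71 with sex as a factor and 3 thinned before gating. In Ccl5-positive CD8 cells these were 24, 132, 269 with sex (1 member) and 0 without the replicate block. In Foxp3-positive cells 86 genes and 6 members were called without the filter, 88 and 6 with sex, 15 and 2 in the CD4 gate, and 0 genes without the replicate block. Leaving out 1 day's pair gave 0 to 124 genes and 0 to 1 members in CD4, 0 to 70 genes in Ccl5-negative CD8, 4 to 205 genes and 0 to 4 members in Ccl5-positive CD8, and 7 to 100 genes and 0 to 4 members in Foxp3-positive cells. The interaction of PPCA and cell group went from 6 genes to 0 (DESeq2), 50 with 1 member (no filter), 0 (no replicate block), 89 with 4 members (sex), 2 (thinned), 1 (no B or myeloid UMI) and, leaving out pairs, 4 to 73 genes and 0 to 6 members. For day 4 the genes called went to 2418 in CD4 cells (no filter), to 1120 (DESeq2) and 3081 (sex) in Ccl5-negative CD8 cells, to 442 (DESeq2), 1723 (no filter), 2503 (sex) and 511 (thinned) in Ccl5-positive CD8 cells, and to 185, 758, 828 and 234 in Foxp3-positive cells in the same order. Members called for day 4 in Ccl5-negative CD8 cells were 2 of 10 without the filter and 4 of 10 with sex. Of all genes, 14.9% (2761) and 26.9% were called in these 2 fits. In Ccl5-positive CD8 cells the members called were 1 of 10 in each, where 10.01% and 24.3% of genes were called. Leaving out pairs gave 503 to 1021, 384 to 1570, 609 to 1371 and 343 to 400 genes in the 4 groups, and 0 to 1, 0 to 3 and 0 to 1 members in the last 3. The higher member counts came without the day 2 pair, where 13.99%, 13.73% and 4.795% of genes were called.

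Thinning before gating raised further mean levels in Ccl5-positive CD8 cells. They were 663 CPM in place of 469 CPM for Lgals1 and 751 CPM in place of 568 CPM for Vim. For S100a11 the mean was 226 CPM in place of 157 CPM, for Anxa2 151 in place of 107 and for Anxa1 10.1 in place of 6.92. Fold changes near 0 changed sign. For PPCA in CD4 cells, the log2 fold change was 0.051 without the replicate block, 0.046 with sex and 0.88 thinned for Anxa1, 0.025 without doublet removal, 0.030 without the replicate block and 0.33 thinned for Lgals3, and 0.18 thinned for S100a4. Thinning also gave 0.020 for Crip1 and -0.32 for S100a4 in Ccl5-negative, and -0.048 for Lgals1 and -0.14 for S100a4 in Ccl5-positive CD8 cells. In Foxp3-positive cells S100a11 was -0.30 in the CD4 gate, -0.016 without B or myeloid UMIs and -0.0043 with sex. Leaving out pairs gave -0.53 to 0.39 (Anxa1), -0.20 to 0.32 (Anxa2), -0.59 to 0.29 (Lgals3), -0.74 to 0.38 (S100a4) and -0.44 to 0.49 (S100a6) in CD4 cells. It gave -0.071 to 0.052 (Crip1), -0.081 to 0.14 (S100a11) and -0.61 to 1.10 (S100a4) in Ccl5-negative CD8 cells. In Ccl5-positive CD8 cells it gave -0.11 to 0.60 (Anxa2), -0.33 to 0.44 (Lgals1), -0.18 to 0.37 (Lgals3), -0.21 to 0.020 (S100a10), -0.37 to 0.50 (S100a4) and -0.28 to 0.063 (Vim), and in Foxp3-positive cells -0.31 to 0.27 (S100a11). The cause of these changes was not tested. The PPCA comparison rests on 3 libraries an arm, and Anxa1 on few UMIs.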
